A study of Homo sapiens with 18 samples.

Results

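The comparison described here set a melanoma line resistant to BRAF and MEK inhibitors against its parental line, both grown in vehicle (DMSO) without drug. It rested on 4 of the 18 RNA-seq libraries of the series, 2 of the R line (R_DMSO) and 2 of the P line (P_DMSO). It covered the 15340 genes, of 60595 listed, that reached 1 FPKM or more in at least 2 of these 4 libraries. FPKM (fragments per kilobase of transcript, scaled to library size) is a level corrected for gene length and sequencing depth. All libraries came from A375, a human melanoma cell line with an activating BRAF mutation, grown in DMEM with 10% fetal bovine serum. The labels give the lines only as R and P and call the genotype WT, and they are read here as resistant and parental from the title of the series. How the R line was derived, and whether it is 1 clone, is not given in the sources used here.

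Values from the other conditions are placed beside the vehicle libraries. R_DT and P_DT (2 libraries each) are the same lines treated with 250 nM dabrafenib, a BRAF inhibitor, and 10 nM trametinib, a MEK inhibitor, and stand in the same deposited table. R_shCtrl and P_shCtrl (2 libraries each) are the lines carrying a lentiviral control hairpin, and each stands in a table normalised on its own, so their values are given without a test. The labels do not say that the 2 libraries of a group came from separate cultures, and p-values therefore measure only a spread between libraries. With 2 libraries a group, an exact permutation test of 1 gene cannot give a two-sided p below 0.333. The tests below come from a limma fit over the 8 libraries of the vehicle and drug groups. For each gene that fit takes a common spread from all these groups. Vehicle p-values therefore also draw on the drug-treated libraries, which lay closer together than the P_DMSO libraries.

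Melanoma cells with mutant BRAF depend on signalling through RAF, MEK and ERK, and they often escape its inhibition by changing state as well as by restoring the pathway. Melanocytes arise from the neural crest, and SOX10 and MITF are transcription factors that hold their identity. A dedifferentiated state with low SOX10, high receptor tyrosine kinases such as AXL, and secreted matrix and cytokine genes is known from many melanoma lines that tolerate these inhibitors. Cells in which ERK signalling is active express feedback inhibitors of the pathway, among them the Sprouty proteins and the dual-specificity phosphatases.

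The quality of the libraries differed too. The 2 P_DMSO libraries lay further apart from each other than those of any other group in the fit: the standard deviation of the gene-wise difference between replicates was 0.599 on the log2 scale in P_DMSO, compared with 0.308 in R_DMSO and 0.283 to 0.294 in the drug-treated groups. The structural RNA RN7SL1 stood at 725 and 319.5 FPKM in R_DMSO and at 485 and 3227 FPKM in P_DMSO. Mitochondrially encoded mRNAs made up 9.95% and 12.2% of the summed FPKM in R_DMSO and 5.64% and 7.57% in P_DMSO. Of the 13 mitochondrially encoded mRNAs, 8 were called higher, compared with 2 without R_DMSO replicate 1, 1 without replicate 2 and 12 without P_DMSO replicate 2. The part of this share in the results was not tested. The files give no depth. The steps between low values of genes with a single annotated transcript correspond best to 8660000 and 8420000 fragments in R_DMSO and 10900000 and 7140000 in P_DMSO, if fragments averaged 250 bases, and the steps were weakly defined. Of 10 melanocytic markers, summed levels were 29.2 and 27.3 FPKM in R_DMSO against 163 and 209 FPKM in P_DMSO. SOX10 alone made up 143 and 180.3 FPKM of the P_DMSO sums. MITF went the other way, with 25.5 and 23.8 FPKM in R_DMSO against 4.82 and 7.51 FPKM in P_DMSO. S100B, SLC45A2, SOX10 and TYR were listed at 0 in both R_DMSO libraries and TYR in both P_DMSO libraries, while MITF and PAX3 were at or above 1 FPKM in all 4. Fibroblast markers (8 genes) summed to 29.4 and 26.2 FPKM in R_DMSO against 2.9 and 4.05 FPKM in P_DMSO, with COL1A2 listed at 0 in all 4 libraries. Leukocyte, endothelial and erythroid markers summed to at most 2.50 FPKM in any vehicle library. In bulk RNA, fewer cells of a type and less RNA per cell cannot be told apart.

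Under vehicle, 4872 of the 15340 genes differed between the lines at a Benjamini-Hochberg adjusted p below 0.05 in limma (31.8%), and are called here, 2875 of them higher in R_DMSO (18.7%) and 1997 lower (13%). The median log2 difference of the called genes was 1.12 among those that were higher and -1.19 among those that were lower, on the log2(FPKM + 1) scale used throughout, which understates the change of genes of low level. Over all genes tested the median was 0.11, and quantile normalization brought it to -0.0023 and the called genes to 2352 higher and 2432 lower. The number called was 2508 without R_DMSO replicate 1 and 2513 without R_DMSO replicate 2. A fit of the vehicle libraries alone, without the spread of the drug-treated libraries, called 2529 genes. With drugs, 5675 genes differed between the lines (37.0%), 2926 higher in R_DT (19.1%) and 2749 lower (17.9%). These shares over all genes are the ones to set beside each count of list members below.

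How far the vehicle differences recurred in other libraries of the same lines was counted. The genes higher under both conditions numbered 1495, which is 52.0% of those higher under vehicle and 51.1% of those higher with drugs. Those lower under both numbered 1039, which is 52.0% of the vehicle list and 37.8% of the drug list. In the control hairpin libraries the lines did not overlap and R was higher for 32.8% of all genes, and for 58.8% of the genes called higher under vehicle. The lines did not overlap and R was lower for 33.7% of all genes, and for 65.4% of those called lower under vehicle. In the opposite direction, 480 of the genes called higher and 224 of those called lower did not overlap there. Across the 15340 genes the line difference under vehicle correlated with that with drugs at r = 0.566 and with that in the control hairpin libraries at r = 0.559, a description across genes of the same lines.

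**Figure D1:**
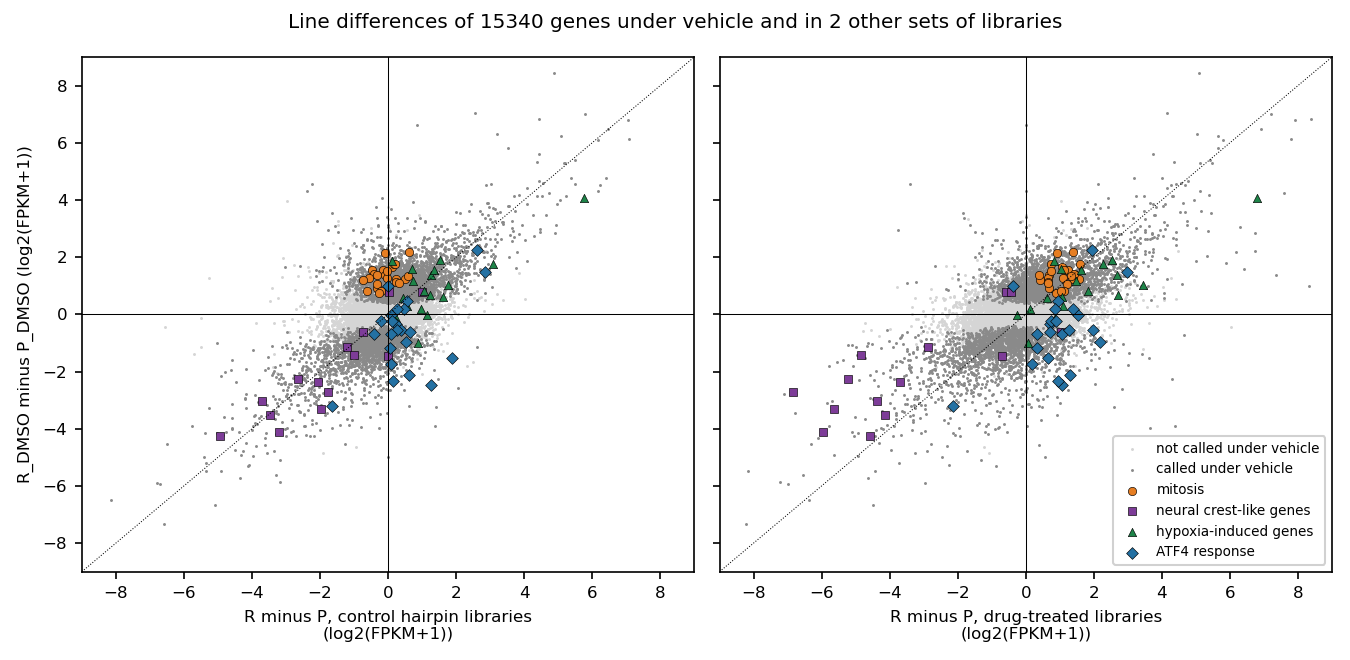
Each point is a gene, with its R_DMSO minus P_DMSO difference on the vertical axis and, on the horizontal axis, the R minus P difference in the control hairpin libraries (left) or with drugs (right), all as log2(FPKM+1). Neural crest-like genes lie low on both axes, and mitosis genes, which sit above 0 under vehicle with a median of 1.31, sit around 0 (median -0.09) in the control hairpin libraries.

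The genes with the largest vehicle differences showed them again in the other libraries of the lines. They were taken from called protein-coding genes whose libraries did not overlap and that averaged 10 FPKM or more in the higher line. The 25 with the largest increases were all called higher with drugs and were all at least 2-fold higher, without overlap, in the control hairpin libraries, where 7.31% of all genes were. Of the 25 with the largest decreases, 23 were called lower with drugs and all 25 were at least 2-fold lower in the control hairpin libraries, where 8.56% of all genes were. The exceptions with drugs were IGFBP3 and SMOC1.

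Among the increases, LCP1, an actin-bundling protein of leukocytes that many carcinomas also express, had 124 and 117 FPKM in R_DMSO against 0.414 and 1.07 FPKM in P_DMSO. RAC2, a small GTPase of blood cells, had 61.4 and 53.2 FPKM in R_DMSO against 0.946 and 2.0 FPKM in P_DMSO. ZSCAN4, a zinc finger protein known from early mouse embryos, had 70.9 and 66.5 FPKM in R_DMSO against 0.0527 and 0 FPKM in P_DMSO. Every R_DMSO value of these genes was above 50 FPKM, and the log2 differences were 6.14 for LCP1, 4.59 for RAC2 and 6.09 for ZSCAN4. BARX1, a homeobox factor, stood at 94.5 and 73.7 FPKM in R_DMSO against 0.445 and 2.19 FPKM in P_DMSO. EPB41L3, a membrane skeleton protein, stood at 38.3 and 47.4 FPKM in R_DMSO against 0.0579 and 0 FPKM in P_DMSO. Among the decreases, PXDN, a peroxidase that crosslinks collagen IV, had 0.0324 and 0.0469 FPKM in R_DMSO against 27.4 and 50.8 FPKM in P_DMSO. The lines were again fully apart for these 3 genes. SULF2, an extracellular heparan sulfate sulfatase, had 0.284 and 1.08 FPKM in R_DMSO against 32.9 and 54.5 FPKM in P_DMSO. PDE1C, a cyclic nucleotide phosphodiesterase, had 0.507 and 1.45 FPKM in R_DMSO against 52.7 and 63.4 FPKM in P_DMSO. The R_DMSO libraries held less than 2 FPKM of PXDN, SULF2 and PDE1C.

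Among the tested genes with a symbol, 19 were listed at 0 in both libraries of one line and at 10 FPKM or more in both of the other. The 9 at 0 in R_DMSO were CDH19, EYA4, FST, HLA-DRA, NTM, SERPINA3, SMOC1, SOX10 and SOX5. CDH19, HLA-DRA and SERPINA3 were at 0 in all 10 libraries of the R line, those with drugs, a control hairpin or a knockdown included. NTM, the adhesion protein neurotrimin, had 0 FPKM in both R_DMSO libraries against 37.9 and 38 FPKM in P_DMSO. SMOC1, a secreted calcium-binding protein, had 0 FPKM in both R_DMSO libraries against 33.5 and 44.5 FPKM in P_DMSO. Both genes were far lower in the P line with drugs, NTM at 3.57 and 3.92 FPKM in P_DT and SMOC1 at 1.78 and 0.573 FPKM in P_DT.

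The 10 at 0 in P_DMSO comprised 8 protein-coding genes and the processed pseudogenes MT2P1 and RPL39P3, whose reads may come from their parent genes. G0S2, an inhibitor of triglyceride lipolysis, had 27 and 25.3 FPKM in R_DMSO against 0 FPKM in both P_DMSO libraries. It was at 0 in all 8 libraries of the P line and at 4.63 FPKM or more in all 10 of the R line. ALPP, placental alkaline phosphatase, which has closely similar paralogs, had 17.6 and 14.1 FPKM in R_DMSO against 0 FPKM in both P_DMSO libraries. MAP1LC3C, a member of the LC3 autophagy family, had 14 and 13 FPKM in R_DMSO against 0 FPKM in both P_DMSO libraries. Both genes were above 0 in all 10 R libraries and reached at most 3.68 FPKM in a P library. In the control hairpin libraries ALPP stood at 4.15 and 1.23 FPKM in R_shCtrl against 2.91 and 2.74 FPKM in P_shCtrl, and the lines overlapped there.

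SOX10 and genes that mark the neural crest lineage were lower in the resistant line. Of 14 neural crest-like genes tested (20 in the list), 11 fell, 1 rose and 2 were not called, with a median log2 difference of -2.31, where all genes had a median of 0.11. SOX10 was listed at 0 FPKM in both R_DMSO libraries against 143 and 180.3 FPKM in P_DMSO. ERBB3, a neuregulin receptor that SOX10 is known to activate, had 5.67 and 5.91 FPKM in R_DMSO against 35.7 and 33 FPKM in P_DMSO (log2 difference -2.38, SE 0.15, adjusted p = 0.000114). NES, the intermediate filament protein nestin, stood at 0.0186 and 0.0207 FPKM in R_DMSO against 13 and 26.2 FPKM in P_DMSO. In these 3 genes neither R_DMSO library came near the lower P_DMSO library. NGFR, the p75 neurotrophin receptor, picked after its values were seen, stood at 0.286 and 0.103 FPKM in R_DMSO against 6.88 and 11.2 FPKM in P_DMSO. S100B, a calcium-binding marker of melanocytes and glia, had 0 FPKM in both R_DMSO libraries against 8.08 and 9.85 FPKM in P_DMSO. CDH19, a cadherin of Schwann cell precursors, had 0 FPKM in both R_DMSO libraries against 20.5 and 12.7 FPKM in P_DMSO. Like SOX10, the last 2 were not detected in R_DMSO. SOX5, a relative of SOX10 that binds the same kind of site, had 0 FPKM in both R_DMSO libraries against 18.4 and 19.4 FPKM in P_DMSO. EYA4, a transcriptional coactivator and phosphatase, had 0 FPKM in both R_DMSO libraries against 17.1 and 15 FPKM in P_DMSO. LEF1, a WNT-pathway transcription factor, had 0.433 and 0 FPKM in R_DMSO against 10.6 and 11.8 FPKM in P_DMSO. The groups did not overlap for any of these.

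The neural crest differences recurred with drugs and with the control hairpin. With drugs 11 members were called lower, 10 of them also under vehicle, and the median was -4.26. With the control hairpin the median was -1.87, and 10 of the 11 genes that fell under vehicle were lower there without overlap. S100B stood at 0.628 and 0.357 FPKM in R_DT, compared with 76.1 and 70.7 FPKM in P_DT. Its line difference with drugs minus that under vehicle was -2.33 on the log2 scale (adjusted p = 0.00383), and P_DT was the group with the high values. The lineage factors outside this list did not all move one way. MITF, the master regulator of pigment genes, had 25.5 and 23.8 FPKM in R_DMSO against 4.82 and 7.51 FPKM in P_DMSO. TFAP2A, which works beside MITF in pigment cells, had 16 and 20.8 FPKM in R_DMSO against 7.07 and 4.55 FPKM in P_DMSO (log2 difference 1.52, SE 0.22, adjusted p = 0.00277). Both rose, whereas PAX3, an activator of MITF, had 2.22 and 2.39 FPKM in R_DMSO against 6.28 and 7.64 FPKM in P_DMSO and fell.

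Genes that report ERK activity were mostly lower in R_DMSO. Of 22 genes of MAPK output and feedback, 13 fell, 3 rose and 6 were not called, and the median was -0.94. Without P_DMSO replicate 2, 5 rose. SPRY2, a Sprouty inhibitor of receptor signalling to RAS, had 15.3 and 15.8 FPKM in R_DMSO against 68.5 and 55.7 FPKM in P_DMSO. SPRY4, its relative, had 2.56 and 2.21 FPKM in R_DMSO against 19.8 and 25.1 FPKM in P_DMSO. ETV4, an ETS factor that ERK signalling induces, had 7.8 and 6.58 FPKM in R_DMSO against 49.1 and 65.3 FPKM in P_DMSO (log2 difference -2.82, SE 0.24, adjusted p = 0.000359). Both R_DMSO libraries lay below both P_DMSO libraries for all 3. PHLDA1, an ERK-induced gene, had 64.1 and 60.9 FPKM in R_DMSO against 253 and 274 FPKM in P_DMSO. CCND1, the cyclin that carries growth signals into G1, had 75.3 and 69.8 FPKM in R_DMSO against 176 and 183 FPKM in P_DMSO. DUSP6, the ERK phosphatase, had 32.9 and 35.6 FPKM in R_DMSO against 56.5 and 63 FPKM in P_DMSO. Its difference of -0.78 was smaller (SE 0.16, adjusted p = 0.00993), and it did not pass without R_DMSO replicate 1 (-0.73, adjusted p = 0.0676). FOSL1, an AP-1 factor stabilised by ERK, had 112 and 104 FPKM in R_DMSO against 77.9 and 214 FPKM in P_DMSO. Its P_DMSO libraries lay on either side of R_DMSO and it was not called (-0.26, adjusted p = 0.673). Its difference was 0.47 without P_DMSO replicate 2 and -0.98 without P_DMSO replicate 1. In the control hairpin libraries FOSL1 was lower in R, at 109 and 104 FPKM in R_shCtrl against 189 and 187 FPKM in P_shCtrl. With drugs it stood at 69.5 and 79.4 FPKM in R_DT, compared with 32.9 and 29.6 FPKM in P_DT. That difference of 1.22 was not called (adjusted p = 0.0530).

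All 13 genes that fell were also lower without overlap in the control hairpin libraries, where the median over the list was -0.85. With drugs 4 members were lower, 7 were higher and the median was 0.29. The line difference itself differed between drugs and vehicle for 13 of the 22, where it did for 14.1% of all genes (7.02% with R relatively higher with drugs, 7.12% relatively lower). That share came from 2169 genes, and leaving out 1 library gave between 667 and 4493. SPRY2 stood at 11.7 and 12 FPKM in R_DT, compared with 10.9 and 10.9 FPKM in P_DT, a difference of 0.12 (adjusted p = 0.578). ETV4 stood at 2.22 and 3.58 FPKM in R_DT, compared with 2.23 and 2.53 FPKM in P_DT, a difference of 0.18 (adjusted p = 0.584). Neither was called with drugs, and the P_DT levels of both lay below their P_DMSO levels. CCND1 stood at 103 and 105 FPKM in R_DT, compared with 32.1 and 27.2 FPKM in P_DT (drugs minus vehicle 3.08, adjusted p = 0.000567), higher in the resistant line.

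Of 23 genes of RAS, RAF, MEK, ERK and their scaffolds, which carry the signal from receptors to the nucleus, 3 rose, 1 fell and 19 were not called, with a median of 0.09. Of all genes tested, 18.7% rose and 13% fell. The number that rose was 1 without either R_DMSO replicate and 6 without P_DMSO replicate 2. MAP3K8, a kinase that can activate MEK without RAF, had 4.92 and 8.31 FPKM in R_DMSO against 0.67 and 0.357 FPKM in P_DMSO (log2 difference 2.30, SE 0.28, adjusted p = 0.00143). MAP2K1, which encodes MEK1, had 59.6 and 62.5 FPKM in R_DMSO against 40.3 and 42.7 FPKM in P_DMSO. Its difference of 0.55 (SE 0.13, adjusted p = 0.0177) did not pass without R_DMSO replicate 1 (adjusted p = 0.0717), without replicate 2 (0.0956) or under quantile normalization (0.101).

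Among growth factor ligands, 6 of 14 tested rose, 2 fell and 6 were not called (median 0.36), where 18.7% of all genes rose and 13% fell. Without P_DMSO replicate 1, 4 fell. HBEGF, a ligand of the EGF receptor, had 52.1 and 47.7 FPKM in R_DMSO against 7.54 and 6.7 FPKM in P_DMSO (log2 difference 2.65, SE 0.14, adjusted p = 5.21e-05). NRG1, the neuregulin that binds ERBB3 and ERBB4, had 19.5 and 19.8 FPKM in R_DMSO against 2.49 and 2.05 FPKM in P_DMSO. VEGFC, a lymphatic growth factor, had 52.2 and 53.3 FPKM in R_DMSO against 15.1 and 12.2 FPKM in P_DMSO. The R_DMSO libraries were several times above the P_DMSO libraries for these ligands. TGFA, another EGF receptor ligand, fell, with 8.77 and 9.19 FPKM in R_DMSO against 37.2 and 37.1 FPKM in P_DMSO. HBEGF differed by 3.06 with drugs and by 3.32 with the control hairpin. TGFA was higher in the resistant line with drugs, at 17.7 and 14.5 FPKM in R_DT, compared with 7.75 and 5.43 FPKM in P_DT.

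Of all genes tested, 18.7% rose and 13% fell. Of 20 receptor tyrosine kinases tested, 6 rose and 5 fell (median -0.03). These counts were 2 and 3 without R_DMSO replicate 1, and 3 and 3 without replicate 2. FGFR1, a fibroblast growth factor receptor, had 39.5 and 36 FPKM in R_DMSO against 9.04 and 9.85 FPKM in P_DMSO. FGFR2, its relative, had 3.8 and 4.61 FPKM in R_DMSO against 0.292 and 0 FPKM in P_DMSO. DDR2, a collagen receptor kinase, had 6.69 and 7.28 FPKM in R_DMSO against 54.8 and 53.8 FPKM in P_DMSO. Both FGF receptors were higher in R_DMSO and DDR2 was lower, without overlap. AXL, the receptor often high in dedifferentiated melanoma, had 60.6 and 49.6 FPKM in R_DMSO against 133 and 182 FPKM in P_DMSO (log2 difference -1.49, SE 0.18, adjusted p = 0.00153), lower in the resistant line.

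Genes of inflammatory signalling were more often higher than lower in the resistant line, as were all genes tested (18.7% rose and 13% fell). Of 19 interleukins and receptors tested, 10 rose and 6 fell (median 0.59), and with the vehicle libraries alone 6 rose and 6 fell. Of 9 chemokines, 5 rose and none fell (median 1.46). Of 18 NF-kB regulators, 8 rose and 3 fell (median 0.63), and without either R_DMSO replicate 5 rose. The number that fell was 1 without R_DMSO replicate 2. The control hairpin medians were 1.01, 1.07 and 1.08 for these lists in the same order.

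TNF, a cytokine that activates NF-kB, had 24.8 and 20 FPKM in R_DMSO against 0.12 and 0.0717 FPKM in P_DMSO (log2 difference 4.41, SE 0.19, adjusted p = 3.06e-05). IL6, a cytokine that acts through STAT3, had 20.8 and 18.5 FPKM in R_DMSO against 1.51 and 2.3 FPKM in P_DMSO. CSF2, the granulocyte-macrophage growth factor, had 56 and 52.3 FPKM in R_DMSO against 2.68 and 4.5 FPKM in P_DMSO. The P_DMSO libraries held less than 5 FPKM of each. CXCL8, a neutrophil attractant, had 423 and 461 FPKM in R_DMSO against 116 and 78.1 FPKM in P_DMSO. CXCL1, another, had 158 and 151 FPKM in R_DMSO against 30.2 and 28.6 FPKM in P_DMSO. CCL20, a chemokine for CCR6-bearing cells, had 10.9 and 14 FPKM in R_DMSO against 0.467 and 0 FPKM in P_DMSO. All 3 chemokines were fully apart between the lines. NFKBIA, the inhibitor that NF-kB itself induces, had 73.9 and 60.2 FPKM in R_DMSO against 15.1 and 26.2 FPKM in P_DMSO. IL32, a cytokine without a known mouse counterpart, had 207 and 166 FPKM in R_DMSO against 6.97 and 9.85 FPKM in P_DMSO. C15orf48, which encodes a small mitochondrial protein, had 69.7 and 68 FPKM in R_DMSO against 2.14 and 3.22 FPKM in P_DMSO. The 9 genes were all higher without overlap in the control hairpin libraries too, with log2 differences from 1.62 (NFKBIA) to 6.17 (IL32).

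Some interleukins were higher in the parental line under vehicle. IL24, a member of the IL-10 family, had 74.7 and 75.7 FPKM in R_DMSO against 754 and 693 FPKM in P_DMSO (log2 difference -3.25, SE 0.14, adjusted p = 2.62e-05). IL1B, a cytokine of the inflammasome, had 0.251 and 0.329 FPKM in R_DMSO against 14.2 and 15 FPKM in P_DMSO. IL1A, its relative, named after its values were seen, had 4.14 and 5.81 FPKM in R_DMSO against 43.6 and 29.4 FPKM in P_DMSO. All 3 were lower in R_DMSO. In the control hairpin libraries IL24 stood at 74.2 and 81.5 FPKM in R_shCtrl against 31.7 and 25.4 FPKM in P_shCtrl. IL1A stood there at 9.16 and 7.55 FPKM in R_shCtrl against 5.84 and 5.75 FPKM in P_shCtrl. The order of the lines was the opposite, with P_shCtrl far below P_DMSO, on separately set scales. With drugs too IL24 was higher in R, at 41.6 and 46.4 FPKM in R_DT, compared with 7.08 and 5.96 FPKM in P_DT.

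Among surface molecules of the immune response, IL7R, the receptor of interleukin 7, had 21.9 and 22.5 FPKM in R_DMSO against 2.99 and 2.57 FPKM in P_DMSO. CD274, the checkpoint ligand PD-L1, had 39 and 35.4 FPKM in R_DMSO against 3.44 and 2.55 FPKM in P_DMSO (log2 difference 3.26, SE 0.21, adjusted p = 0.000129). Both rose, and CD274 was also higher in R with drugs (4.73) and with the control hairpin (3.65). NT5E, the ectoenzyme CD73 that makes adenosine, fell, with 19 and 21.5 FPKM in R_DMSO against 124 and 106 FPKM in P_DMSO. Its control hairpin values were 29.4 and 29.3 FPKM in R_shCtrl against 20.5 and 23.8 FPKM in P_shCtrl, slightly higher in R.

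**Figure D2:**
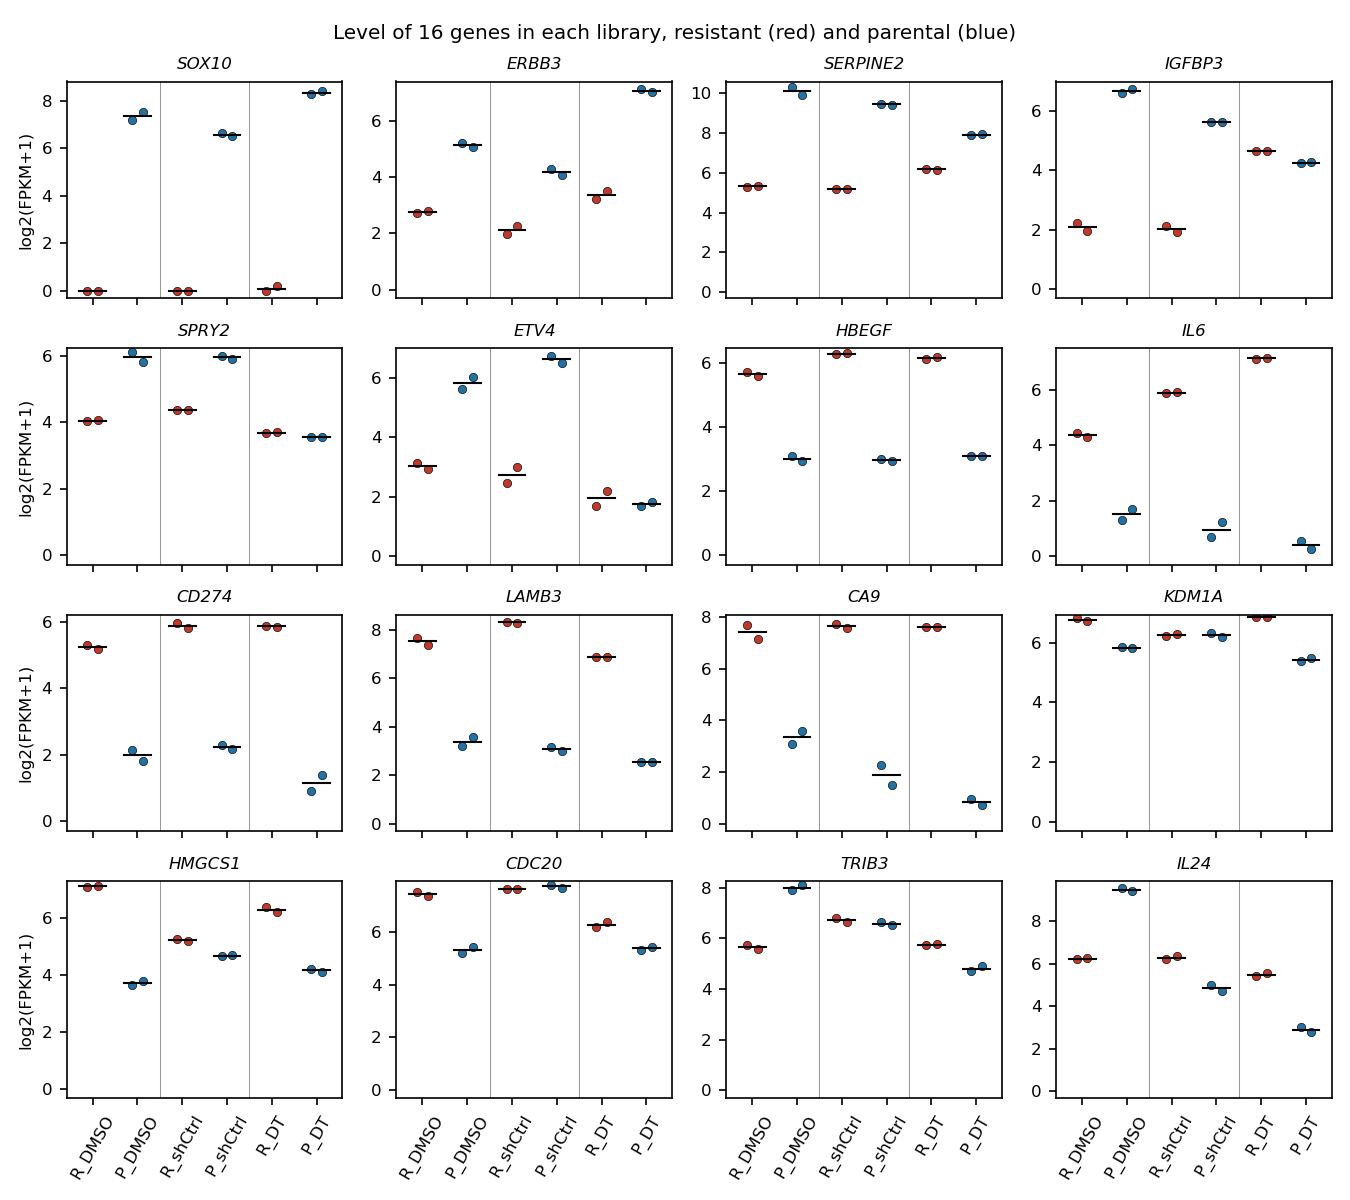
Levels of 16 genes as log2(FPKM+1) on the vertical axis in each library of the 6 groups, R groups in red left of their P groups in blue, points for libraries and bars for the mean of 2. SOX10, ERBB3, SERPINE2, HBEGF, IL6, CD274, LAMB3 and CA9 separate the lines the same way in all 3 pairs of groups, while CDC20, TRIB3 and IL24 do so differently or not at all with the control hairpin.

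MHC class II genes, which present peptides to helper T cells and which many melanoma cells express, were lower. Of 8 genes of the pathway tested, 4 fell, 1 rose and 3 were not called (median -1.03). HLA-DRA, the alpha chain of HLA-DR, had 0 FPKM in both R_DMSO libraries against 41.2 and 46.7 FPKM in P_DMSO. CD74, the invariant chain, had 20.9 and 19.5 FPKM in R_DMSO against 138 and 189 FPKM in P_DMSO. HLA-DPA1, the alpha chain of HLA-DP, had 7.22 and 4.98 FPKM in R_DMSO against 25.2 and 34.3 FPKM in P_DMSO. The groups did not overlap for any of them. HLA-DRA was at 0 in all 10 libraries of the R line and at 35.6 FPKM or more in all 8 of the P line. The 4 genes that fell were lower with drugs and with the control hairpin as well, and the list medians there were -2.76 and -1.30.

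Protease inhibitors went both ways. Of 14 urokinase system and serpin genes tested, 7 fell and 3 rose (median -0.83), where 13% of all genes fell and 18.7% rose. All 10 went the same way without overlap with the control hairpin. SERPINE2, protease nexin 1, had 38.4 and 39.8 FPKM in R_DMSO against 1274 and 939.6 FPKM in P_DMSO (log2 difference -4.77, SE 0.16, adjusted p = 1.27e-05). SERPINA3, antichymotrypsin, had 0 FPKM in both R_DMSO libraries against 36.4 and 64 FPKM in P_DMSO. Both fell, and the groups did not overlap.

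Of 6 IGF binding proteins tested, 5 fell and 1 was not called, with a median of -2.69 under vehicle and -3.39 with the control hairpin. IGFBP2 had 1.87 and 0.912 FPKM in R_DMSO against 23.4 and 33.2 FPKM in P_DMSO. IGFBP5, near the limit of the filter, had 0 FPKM in both R_DMSO libraries against 1.03 and 1.38 FPKM in P_DMSO. IGFBP3, the main IGF carrier in blood, had 3.67 and 2.93 FPKM in R_DMSO against 96.7 and 106 FPKM in P_DMSO. No R_DMSO library exceeded 4 FPKM of any of the 3. IGFBP3 in the control hairpin libraries was at 3.33 and 2.8 FPKM in R_shCtrl against 48.4 and 48.4 FPKM in P_shCtrl. With drugs it stood at 24.2 and 23.9 FPKM in R_DT, compared with 17.9 and 18.3 FPKM in P_DT. That line difference of 0.39 was not called (adjusted p = 0.0755). It differed from the vehicle difference (drugs minus vehicle 4.97, adjusted p = 0.000208).

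Of 22 integrin and laminin genes tested, 11 fell and 6 rose (median -0.58). The number that fell was 7 without R_DMSO replicate 1 and 6 without replicate 2. LAMB3, a laminin chain of epithelial basement membranes, had 200.3 and 165 FPKM in R_DMSO against 8.24 and 10.8 FPKM in P_DMSO (log2 difference 4.13, SE 0.17, adjusted p = 2.54e-05). ITGA5, the alpha chain of the main fibronectin receptor, had 115 and 114 FPKM in R_DMSO against 34 and 49.1 FPKM in P_DMSO. ITGAV, the alpha chain of the vitronectin receptors, had 41.3 and 47.6 FPKM in R_DMSO against 16.1 and 11.8 FPKM in P_DMSO. These rose, and the next 2 fell. ITGB4, the integrin chain of hemidesmosomes, had 14.4 and 14.8 FPKM in R_DMSO against 134 and 139.7 FPKM in P_DMSO. ITGB8, a partner of ITGAV that activates TGF-beta, had 0.126 and 0.137 FPKM in R_DMSO against 23.9 and 17.5 FPKM in P_DMSO. The lines were fully apart for each of the 5 genes.

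Matrix genes went both ways. COL5A1, a fibrillar collagen chain, had 20 and 16.8 FPKM in R_DMSO against 2.06 and 2.42 FPKM in P_DMSO. LUM, a collagen-binding proteoglycan and one of the fibroblast markers above, had 12.1 and 14 FPKM in R_DMSO against 0.0845 and 0.0728 FPKM in P_DMSO. TNC, the glycoprotein tenascin C, had 16.6 and 14.7 FPKM in R_DMSO against 68 and 58.1 FPKM in P_DMSO. The first 2 rose and TNC fell, and fibroblast markers were 29.4 and 26.2 FPKM in sum in R_DMSO against 2.90 and 4.05 FPKM in P_DMSO, whose part in these differences was not tested. TNC was higher in R with drugs (1.22) and with the control hairpin (0.54). INHBA, the activin A subunit, fell by 1.04 under vehicle and was likewise higher in R with drugs (2.87) and with the control hairpin (0.54).

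Of 17 semaphorins, plexins and neuropilins tested, which guide axons and vessels, 7 fell and 3 rose (median -0.66), and without R_DMSO replicate 1 only 1 rose. All 7 that fell were lower without overlap with the control hairpin. NRP1, a receptor for class 3 semaphorins and VEGF, had 8.65 and 8.72 FPKM in R_DMSO against 33 and 36.8 FPKM in P_DMSO. NRP2, its relative, had 5.46 and 4.85 FPKM in R_DMSO against 25.9 and 40.4 FPKM in P_DMSO. SEMA3C, a ligand of both, had 11.7 and 12.6 FPKM in R_DMSO against 41.9 and 51.5 FPKM in P_DMSO. The R_DMSO libraries were below the P_DMSO libraries for the receptors and the ligand.

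Actin-binding contractile genes were mostly higher: of 14 tested, 9 rose and 1 fell (median 1.03), and the fall was not called without either R_DMSO replicate. The median was 2.12 with drugs and 0.71 with the control hairpin. FLNC, a filamin of muscle, had 25.7 and 23 FPKM in R_DMSO against 0.05 and 0.0766 FPKM in P_DMSO (log2 difference 4.57, SE 0.18, adjusted p = 2.2e-05). TPM2, a tropomyosin, had 308 and 228 FPKM in R_DMSO against 35.4 and 79.7 FPKM in P_DMSO. TAGLN, a smooth muscle actin-binding protein, had 8.74 and 6.2 FPKM in R_DMSO against 1.56 and 2.09 FPKM in P_DMSO. All 3 were higher in R_DMSO, and with drugs TAGLN stood at 497 and 524 FPKM in R_DT, compared with 5.31 and 4.71 FPKM in P_DT.

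Of 10 keratins tested, 4 rose and 2 fell (median 0.73), where 18.7% of all genes rose and 13% fell. KRT8, an intermediate filament protein of simple epithelia, had 503 and 483 FPKM in R_DMSO against 40.6 and 80.3 FPKM in P_DMSO. KRT18, its partner, had 480.1 and 442 FPKM in R_DMSO against 155 and 189 FPKM in P_DMSO. Both rose, and the control hairpin difference of KRT18 was -0.28. KRT81, a hair keratin whose near-identical neighbour KRT86 may share its reads, had 10.2 and 7.79 FPKM in R_DMSO against 123 and 175 FPKM in P_DMSO. With drugs it stood at 51.9 and 61.8 FPKM in R_DT, compared with 1.68 and 1.84 FPKM in P_DT, the reverse of vehicle. Markers of keratinocytes (8 genes) summed to 31.5 and 56.7 FPKM in R_DMSO against 35.0 and 43.7 FPKM in P_DMSO.

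Glycolytic and hypoxia-induced genes were higher. Of 26 genes of glycolysis and lactate handling, 19 rose, none fell and 7 were not called (median 0.91), and 9 rose without R_DMSO replicate 1. Of 18 hypoxia-induced genes, 12 rose and 1, VEGFA, fell (median 0.91). All 12 were called higher with drugs and 11 were higher without overlap with the control hairpin, where the median was 1.10. CA9, the carbonic anhydrase that HIF-1 induces, had 206 and 141 FPKM in R_DMSO against 7.45 and 11.1 FPKM in P_DMSO (log2 difference 4.08, SE 0.24, adjusted p = 9.1e-05). BNIP3, a mitophagy receptor, had 134 and 139.9 FPKM in R_DMSO against 36 and 36.1 FPKM in P_DMSO. SLC2A1, the glucose transporter GLUT1, named after its values were seen, had 185 and 181 FPKM in R_DMSO against 38.2 and 61.7 FPKM in P_DMSO. The lines were fully apart for all 3. ALDOC, an aldolase, had 233 and 199 FPKM in R_DMSO against 12.9 and 21.3 FPKM in P_DMSO. PGK1, phosphoglycerate kinase, had 569 and 572 FPKM in R_DMSO against 168 and 155 FPKM in P_DMSO. HK2, hexokinase 2, had 39.3 and 34.3 FPKM in R_DMSO against 13.3 and 14.3 FPKM in P_DMSO. Here too both R_DMSO libraries were above both P_DMSO libraries. The glycolysis median with the control hairpin was 0.41, and LDHA, lactate dehydrogenase A, stood there at 1082 and 1097 FPKM in R_shCtrl against 532 and 509.9 FPKM in P_shCtrl.

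The promoter of CA9 is shown because its hypoxia response element is well characterised and lies close to the start. In the 250 bases before the RefSeq start of CA9 (GRCh38.p14, chr9:35673678-35673927, plus strand), the letters ACGTG, searched on both strands, occur once. The match is in capitals and reads CACGT on the strand shown.
CA9: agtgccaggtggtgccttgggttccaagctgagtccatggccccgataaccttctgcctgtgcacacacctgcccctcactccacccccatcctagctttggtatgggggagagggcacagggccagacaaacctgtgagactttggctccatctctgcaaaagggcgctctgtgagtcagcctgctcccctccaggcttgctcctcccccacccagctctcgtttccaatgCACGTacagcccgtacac
The same 5 letters occur in this window of 7 of the 16 hypoxia genes with an entry in the RefSeq table (43.8%) and in 18.7% of all 27305 promoters of the table.

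Genes of iron handling, glutathione and drug efflux moved both ways. Of 14 iron handling genes tested, 6 rose and 2 fell (median 0.42), and 1 fell without R_DMSO replicate 1. Of 19 genes of glutathione synthesis and defence against lipid peroxides, 5 rose and 2 fell (median 0.20), and 8 rose without P_DMSO replicate 1. Of 12 ABC transporter genes, 4 rose and 2 fell (median 0.51). The number that rose was 7 without P_DMSO replicate 2, and the number that fell was 1 without it or without R_DMSO replicate 1. Of all genes tested, 18.7% rose and 13% fell. The 2 that fell in the glutathione list encode the cystine importer. SLC7A11, its transport subunit, had 1.23 and 1.16 FPKM in R_DMSO against 19.1 and 16.6 FPKM in P_DMSO (log2 difference -3.10, SE 0.19, adjusted p = 9.14e-05). SLC3A2, its anchoring subunit, had 119 and 94.2 FPKM in R_DMSO against 359 and 419 FPKM in P_DMSO (log2 difference -1.86, SE 0.17, adjusted p = 0.000456). Both were named after their values were seen. The 2 ferritin chains went opposite ways. FTL, the light chain, had 3816 and 3461 FPKM in R_DMSO against 725 and 1116 FPKM in P_DMSO. FTH1, the heavy chain, had 2661 and 2286 FPKM in R_DMSO against 4709 and 5337 FPKM in P_DMSO (log2 difference -1.02, SE 0.15, adjusted p = 0.00322). Both genes have many processed pseudogenes that can share reads. With drugs FTH1 stood at 3918 and 3791 FPKM in R_DT, compared with 1701 and 1881 FPKM in P_DT, higher in the resistant line. TFRC, the transferrin receptor that brings in iron, had 119.8 and 125 FPKM in R_DMSO against 35.2 and 31.7 FPKM in P_DMSO. GPX4, which reduces lipid peroxides, had 277 and 238 FPKM in R_DMSO against 201 and 194 FPKM in P_DMSO and was not called (adjusted p = 0.116). TXNRD1, thioredoxin reductase, had 222 and 198 FPKM in R_DMSO against 87.7 and 89.2 FPKM in P_DMSO. ACSL4, which prepares polyunsaturated fatty acids for membrane lipids, had 66.7 and 72 FPKM in R_DMSO against 28.1 and 18.5 FPKM in P_DMSO. ABCG2, a drug efflux pump, had 7.38 and 9.34 FPKM in R_DMSO against 0.401 and 0.2 FPKM in P_DMSO (log2 difference 2.84, SE 0.21, adjusted p = 0.000202). TFRC, TXNRD1, ACSL4 and ABCG2 rose, and ABCG2 differed by 3.71 with drugs and by 2.22 with the control hairpin.

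Sterol and fatty acid synthesis genes were higher under vehicle and with drugs. Of 26 tested, 20 rose and none fell (median 1.21). With drugs 20 were higher and 1 was lower (median 1.41). With the control hairpin the median was 0.17. Of the 20 genes, 11 were higher there without overlap and 5 were lower. Of all genes that rose under vehicle, 58.8% were higher there without overlap. HMGCS1, which makes the HMG-CoA of the sterol pathway, had 134 and 136 FPKM in R_DMSO against 11.6 and 12.7 FPKM in P_DMSO (log2 difference 3.37, SE 0.13, adjusted p = 2.2e-05). SQLE, squalene epoxidase, had 48.7 and 51.6 FPKM in R_DMSO against 13.5 and 11.7 FPKM in P_DMSO. INSIG1, which retains the sterol sensor in the endoplasmic reticulum and was named after its values were seen, had 99.2 and 103 FPKM in R_DMSO against 31.2 and 27.4 FPKM in P_DMSO. The R_DMSO libraries were several times above the P_DMSO libraries for all 3. In the control hairpin libraries HMGCS1 stood at 37.1 and 35.2 FPKM in R_shCtrl against 24 and 24.7 FPKM in P_shCtrl. INSIG1 stood there at 26.1 and 27.6 FPKM in R_shCtrl against 28.5 and 33.3 FPKM in P_shCtrl, with R the lower line.

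All 24 mitosis genes rose (median 1.31), where 18.7% of all genes did. With the vehicle libraries alone or with array weights, 21 rose, and fewer did without either R_DMSO replicate. Of 27 DNA replication genes, 20 rose and none fell (median 1.04), and 11 rose without R_DMSO replicate 1. With drugs 21 mitosis genes and 17 replication genes were higher. CDC20, the activator of the anaphase-promoting complex, had 180.4 and 164 FPKM in R_DMSO against 35.5 and 41.9 FPKM in P_DMSO (log2 difference 2.13, SE 0.15, adjusted p = 0.000164). PLK1, a mitotic kinase named after its values were seen, had 100.3 and 89.6 FPKM in R_DMSO against 24 and 31.2 FPKM in P_DMSO. CCNB2, cyclin B2, had 44.1 and 49 FPKM in R_DMSO against 15.7 and 14.4 FPKM in P_DMSO. Neither P_DMSO library reached the lower R_DMSO library for these. RRM2, the inducible subunit of ribonucleotide reductase, had 152 and 194 FPKM in R_DMSO against 16.9 and 18.8 FPKM in P_DMSO. TK1, thymidine kinase, had 118 and 100 FPKM in R_DMSO against 14.4 and 17.1 FPKM in P_DMSO. PCNA, the sliding clamp of replication, had 179 and 159 FPKM in R_DMSO against 77.1 and 69.6 FPKM in P_DMSO. The replication genes were separated in the same way.

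In the control hairpin libraries the medians were -0.09 for mitosis and -0.20 for replication. Of the 24 mitosis genes, 7 were higher there without overlap and 12 were lower, and of the 20 replication genes 3 were higher and 13 lower. CDC20 stood there at 198 and 198 FPKM in R_shCtrl against 222 and 204 FPKM in P_shCtrl. RRM2 stood at 193 and 198 FPKM in R_shCtrl against 159.9 and 155 FPKM in P_shCtrl. P_shCtrl was several times above P_DMSO for both, on separately set scales.

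The promoters of 3 mitosis genes are shown because cell cycle genes of this group share 2 promoter elements, the CHR (searched as TTTGAA) and the CCAAT box. Both were searched on both strands of the 250 bases before the RefSeq start (GRCh38.p14), and matches are in capitals, reading TTCAAA or ATTGG where they lie on the other strand. The windows are chr1:43358731-43358980 for CDC20, chr15:59104896-59105145 for CCNB2 and chr16:23678639-23678888 for PLK1, all on the plus strand.
CDC20: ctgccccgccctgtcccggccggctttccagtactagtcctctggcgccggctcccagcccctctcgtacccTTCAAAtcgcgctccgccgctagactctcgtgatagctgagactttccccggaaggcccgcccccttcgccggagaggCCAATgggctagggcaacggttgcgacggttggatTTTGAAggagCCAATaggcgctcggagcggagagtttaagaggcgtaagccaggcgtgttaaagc
CCNB2: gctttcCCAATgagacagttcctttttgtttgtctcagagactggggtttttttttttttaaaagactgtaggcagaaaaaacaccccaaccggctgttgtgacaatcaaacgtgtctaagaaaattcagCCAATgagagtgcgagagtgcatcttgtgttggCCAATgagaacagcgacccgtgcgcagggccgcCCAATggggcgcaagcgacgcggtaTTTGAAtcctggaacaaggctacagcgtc
PLK1: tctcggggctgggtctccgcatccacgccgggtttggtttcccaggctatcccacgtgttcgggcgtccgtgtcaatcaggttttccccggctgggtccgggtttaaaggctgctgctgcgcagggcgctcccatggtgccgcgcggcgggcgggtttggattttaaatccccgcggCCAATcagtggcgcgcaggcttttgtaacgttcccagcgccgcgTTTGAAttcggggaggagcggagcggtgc
TTTGAA occurs in this window of 9 of the 19 mitosis genes with an entry (47.4%) and in 13.6% of all 27305 promoters, and CCAAT in 16 of 19 (84.2%) and in 33.0% of all. CCAAT also occurs in 13 of 20 sterol and fatty acid genes with an entry (65.0%), among them HMGCS1 with 2 matches (chr5:43313413-43313662, minus strand). The sterol element TCACNCCAC occurs in 1 of these 20 (5%) and in 0.875% of all promoters.
HMGCS1: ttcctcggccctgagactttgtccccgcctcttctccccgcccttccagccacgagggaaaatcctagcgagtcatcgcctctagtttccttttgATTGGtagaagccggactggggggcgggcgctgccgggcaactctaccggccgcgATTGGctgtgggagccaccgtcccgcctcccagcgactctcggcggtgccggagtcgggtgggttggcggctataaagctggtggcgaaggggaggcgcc
These are matches of letters only.

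The ATF4 stress response differed in direction between vehicle and drugs. Of 23 genes of the ATF4 response and one-carbon metabolism, 12 fell and 4 rose under vehicle (median -0.56). The number that fell was 8 without R_DMSO replicate 1 and 6 without replicate 2, and the number that rose was 2 without replicate 1. With drugs 15 were higher and 1 was lower (median 0.94), where 19.1% of all genes were higher and 17.9% lower. The line difference differed between drugs and vehicle for 16 of the 23, where it did for 14.1% of all genes. TRIB3, a pseudokinase induced by ATF4, had 52.7 and 46.6 FPKM in R_DMSO against 239 and 272 FPKM in P_DMSO (log2 difference -2.34, SE 0.14, adjusted p = 8.8e-05). DDIT3, the transcription factor CHOP, had 35 and 36.4 FPKM in R_DMSO against 175 and 239 FPKM in P_DMSO. ALDH1L2, a mitochondrial folate enzyme, had 4.83 and 6.03 FPKM in R_DMSO against 27.1 and 26.2 FPKM in P_DMSO. All 3 were several times lower in R_DMSO, and with drugs they were higher in R, by 0.95 (TRIB3), 1.07 (DDIT3) and 1.31 (ALDH1L2). Of the 12 genes that fell, 8 were higher in R without overlap with the control hairpin. DDIT3 stood there at 58.2 and 45.3 FPKM in R_shCtrl against 27.9 and 15.7 FPKM in P_shCtrl.

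Of 16 amino acid transporters tested, 8 fell and 1 rose (median -0.50), and the rise was not called without either R_DMSO replicate or P_DMSO replicate 1. SLC7A5, the leucine transporter LAT1, named after its values were seen, had 118 and 108 FPKM in R_DMSO against 306 and 455 FPKM in P_DMSO. SLC6A15, a transporter of neutral amino acids, had 2.78 and 2.67 FPKM in R_DMSO against 60.9 and 47.1 FPKM in P_DMSO. Both were lower in R_DMSO. GADD45A, a stress-induced growth arrest gene, had 52.7 and 47.3 FPKM in R_DMSO against 105 and 132 FPKM in P_DMSO. PMAIP1, the proapoptotic protein NOXA, had 36.8 and 44.9 FPKM in R_DMSO against 138 and 105 FPKM in P_DMSO. These 2 fell as well, and with drugs they were higher in R, by 2.0 (GADD45A) and 2.17 (PMAIP1).

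Of 18 endoplasmic reticulum chaperones and folding enzymes, 8 rose and 2 fell (median 0.15), with none called lower without R_DMSO replicate 1 and 1 without R_DMSO replicate 2 or P_DMSO replicate 1. Over all genes, 18.7% rose and 13% fell. HSPA5, the chaperone BiP, had 447 and 432 FPKM in R_DMSO against 186 and 171 FPKM in P_DMSO. CALR, calreticulin, had 803 and 750.1 FPKM in R_DMSO against 153 and 207 FPKM in P_DMSO (log2 difference 2.12, SE 0.17, adjusted p = 0.000257). PDIA4, a disulfide isomerase, had 125 and 114 FPKM in R_DMSO against 27 and 36.4 FPKM in P_DMSO. All 3 were higher in R_DMSO without overlap. CALR with the control hairpin was at 473 and 453 FPKM in R_shCtrl against 507 and 395 FPKM in P_shCtrl, where the lines overlapped. ID3, an inhibitor of differentiation factors that BMP signalling induces, had 37.5 and 30 FPKM in R_DMSO against 3.17 and 4.51 FPKM in P_DMSO. With drugs ID3 stood at 125 and 118 FPKM in R_DT, compared with 277 and 324 FPKM in P_DT, the reverse of vehicle.

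**Figure D3:**
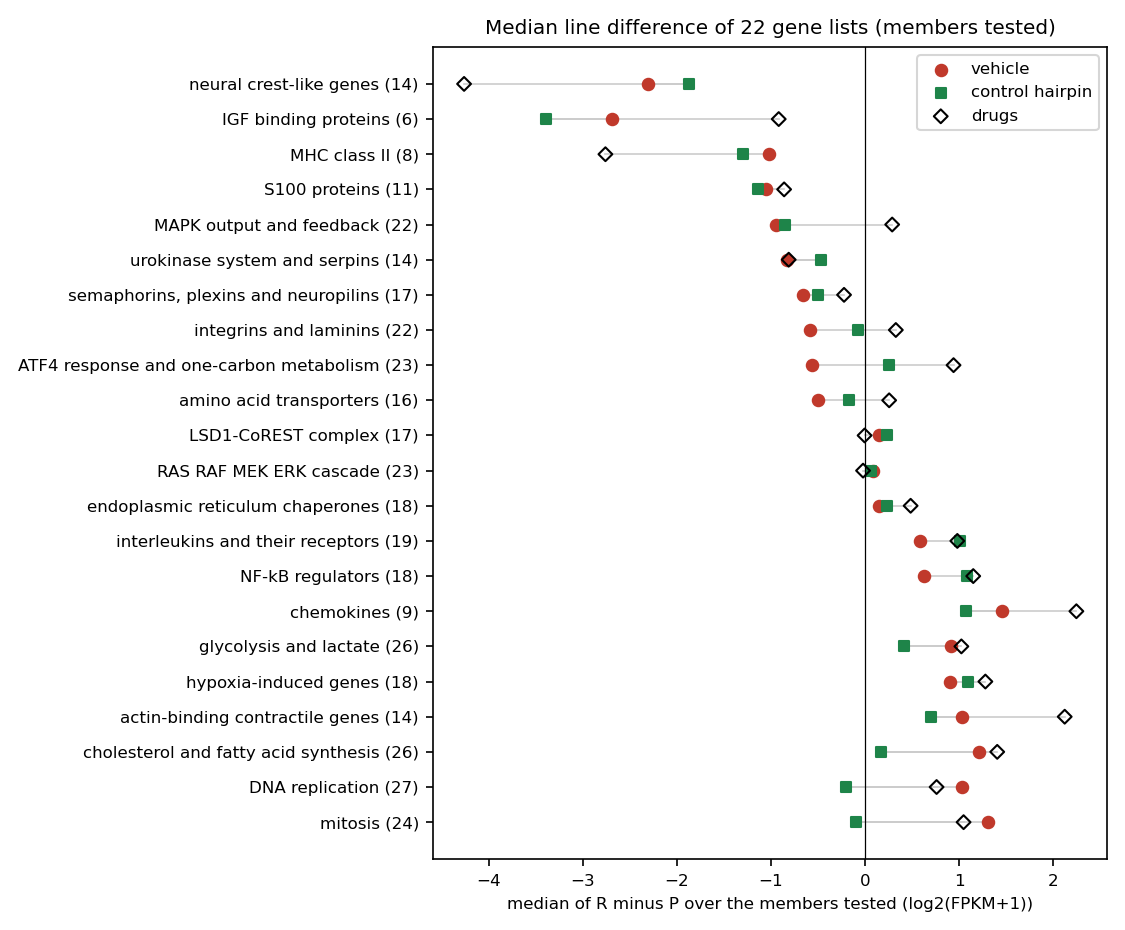
Median R minus P difference (log2(FPKM+1), horizontal axis) over the tested members of 22 gene lists, for vehicle (red circles), control hairpin (green squares) and drugs (open diamonds). The 3 values stay on the same side of 0 for most of the lists, among them the neural crest, IGF binding protein, MHC class II, hypoxia and actin lists. The mitosis and DNA replication lists lie below 0 only with the control hairpin.

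KDM1A, the histone demethylase LSD1 whose knockdown other libraries of the series carry, had 112 and 104 FPKM in R_DMSO against 56.5 and 55.2 FPKM in P_DMSO (log2 difference 0.94, SE 0.12, adjusted p = 0.00156). With drugs it stood at 115 and 114 FPKM in R_DT, compared with 41.1 and 43.3 FPKM in P_DT. The control hairpin libraries had 73.3 and 76.5 FPKM in R_shCtrl against 78.1 and 72.4 FPKM in P_shCtrl, where the lines overlapped. Of 17 genes tested from the LSD1-CoREST list, KDM1A was the one called under vehicle, and 2 were called without either P_DMSO replicate. The median of the list was 0.15, and 31.8% of all genes tested were called.

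Differences were also spread unevenly over the chromosomes. The median difference of protein-coding genes was -0.30 on chromosome 15 (405 genes), -0.23 on chromosome 18 (172 genes) and -0.13 on chromosome 13 (210 genes), and lay between 0.06 and 0.23 on the other 20. Across the 4 pairings of an R_DMSO with a P_DMSO library the median ran from -0.36 to -0.24 on chromosome 15 and from -0.35 to -0.24 on chromosome 18. On chromosome 15, 46 genes rose and 116 fell (40.0% called), and on chromosome 18, 20 rose and 54 fell (43.0%), against 31.8% of all genes tested. With the control hairpin the medians were -0.38 for chromosome 15 and -0.33 for chromosome 18. With drugs they were 0.04 and -0.12. DNA copy number was not analysed here.

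**Figure D4:**
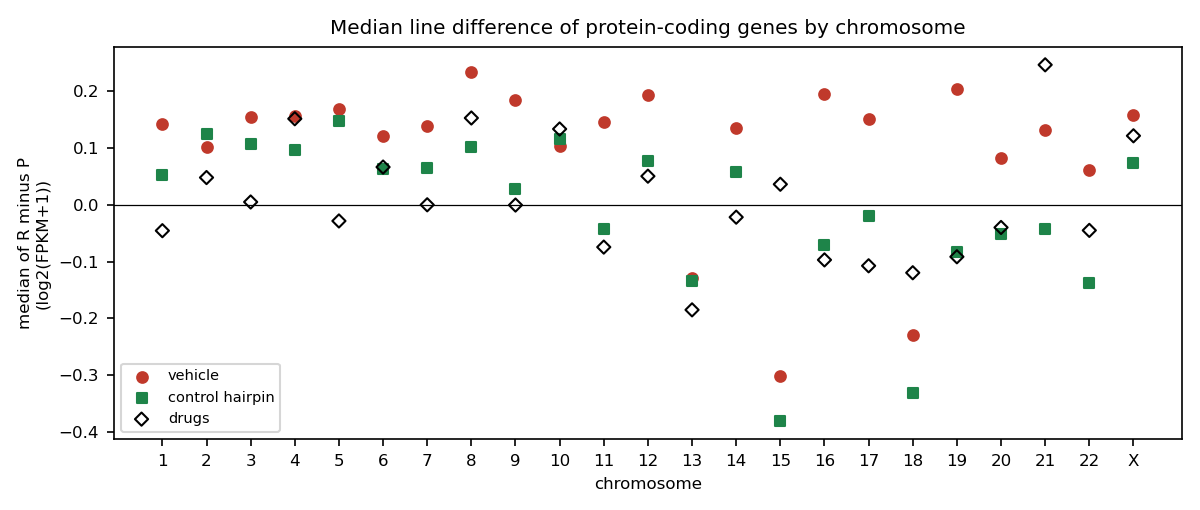
Median R minus P difference of protein-coding genes (log2(FPKM+1), vertical axis) for each chromosome (horizontal axis) under vehicle (red circles), with the control hairpin (green squares) and with drugs (open diamonds). Chromosomes 13, 15 and 18 are the only ones below 0 under vehicle.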

How the data were processed

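FPKM values per gene were deposited by the authors in 4 tables, made with HISAT2 2.1.0 and Cufflinks 2.2.1 on hg38, per the submitters' processing notes. The labels' protocols describe both a directional kit and ribosomal RNA depletion without assigning libraries to them. The deposited tables were used as they stand, and each table was normalised separately. All 18 FPKM columns were matched to libraries by name.

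The 8 libraries of the drug table were fitted together with limma 3.58.1 in R 4.3.3 on log2(FPKM + 1), for genes with 1 FPKM or more in at least 2 of the 4 vehicle libraries, with eBayes trend and robust fitting (4 residual degrees of freedom, prior 2.98) and Benjamini-Hochberg adjustment over all 15340 genes at 0.05. Contrasts were R_DMSO minus P_DMSO, R_DT minus P_DT, and their difference. In simulated data with the layout of this comparison, 22% of 2-fold and 71% of 4-fold changes were called. The spread of a gene was the same in every group there, and few genes were changed. Libraries are called apart where both of one line exceed both of the other. Equal replicate numbers did not pair the libraries (correlation of deviations -0.387 between P_DMSO and R_DMSO), so no block was used. Control hairpin values were compared without a test.

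Genes named were taken from those with the 25 largest differences in each direction, those listed at 0 in one line, and up to 5 called members of each list with the smallest adjusted p, beside KDM1A, FOSL1, TFRC, GPX4, LDHA, DUSP6, AXL, MITF and SOX10. One item is not reported here. The members and gene lists were chosen with earlier results of these data known. Motifs were searched in RefSeq promoter sequences (GRCh38.p14). Alternatives were another pseudocount (0.1), other filters and scalings, array weights, the vehicle libraries alone, a replicate block, and leaving out each library.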

Additional observations from a re-analysis of the deposited data

Results flagged for a closer look

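The difference between R and P was not the same with drugs as under vehicle for 2169 genes (14.1%) by limma's test of that difference itself. Of the protein-coding genes given above with values of their own, 63 are among them. FST, MT2P1 and RPL39P3, named above without such values, are among them too and are not counted here. The number of genes was 727 and 732 without an R_DMSO replicate, 3205 and 4493 without a P_DMSO replicate, and 667 to 694 without a drug-treated library. Of the 63 named genes, 41 passed in all 8 fits that leave out 1 library. The other 22 did not pass in at least 1 of them: ERBB3, CDH19, DUSP6, PHLDA1, FGFR2, CSF2, IL1A, IL7R, CD274, HMGCS1, INSIG1, CDC20, PLK1, TK1, HSPA5, PDIA4, HLA-DPA1, ALPP, MAP1LC3C, LCP1, AXL and TFRC. The values below are R_DT minus P_DT less R_DMSO minus P_DMSO, in log2(FPKM + 1).

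Among lineage and neural crest genes, the values were -2.33 for S100B, -1.87 for CDH19, -1.78 for SOX5 and -1.32 for ERBB3. Among MAPK output genes, receptors and ligands, the resistant line stood relatively higher with drugs by 3.12 for TGFA, 3.08 for CCND1, 3.0 for ETV4, 2.72 for SPRY4, 2.04 for SPRY2, 1.54 for FGFR2, 1.45 for DDR2, 1.15 for DUSP6, 1.09 for PHLDA1 and 1.08 for AXL. Among cytokines and immune genes, the resistant line stood relatively higher with drugs by 5.83 for IL24, 4.53 for CXCL8, 4.50 for NT5E, 3.88 for IL6, 3.33 for IL1B, 3.33 for C15orf48, 2.16 for IL1A, 1.55 for CSF2 and 1.46 for CD274. Negative values in this group were -2.67 for HLA-DRA, -1.40 for HLA-DPA1 and -1.01 for IL7R. Among secreted, matrix, adhesion and cytoskeletal genes, the resistant line stood relatively higher with drugs by 8.28 for KRT81, 4.97 for IGFBP3, 4.84 for TAGLN, 4.44 for SMOC1, 3.90 for INHBA, 3.22 for ITGB4, 3.16 for TNC, 3.04 for NTM and 3.03 for SERPINE2. Negative values in this group were -3.85 for IGFBP5, -2.10 for SEMA3C, -1.99 for LUM and -1.55 for NRP1. Among metabolic and cell cycle genes, the resistant line stood relatively higher with drugs by 2.70 for CA9, 2.13 for FTH1, 2.01 for SLC7A11, 1.72 for SLC3A2 and 1.01 for INSIG1. Negative values in this group were -1.86 for RRM2, -1.46 for TK1, -1.26 for HMGCS1, -1.22 for CDC20, -1.0 for PLK1 and -0.92 for TFRC. Among stress, chaperone and other genes, the resistant line stood relatively higher with drugs by 3.71 for PMAIP1, 3.56 for DDIT3, 3.43 for ALDH1L2, 3.29 for TRIB3, 3.22 for GADD45A, 2.09 for SLC7A5 and 1.64 for LCP1. Negative values in this group were -4.15 for ID3, -1.97 for CALR, -1.83 for MAP1LC3C, -1.65 for ALPP, -1.34 for PDIA4 and -0.88 for HSPA5.

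For 15 of the genes given above with values of their own, both R_shCtrl libraries lay on the opposite side of both P_shCtrl libraries from the vehicle order. That difference was not tested because the tables were normalised separately. R was lower under vehicle but higher with the control hairpin, by 1.42 for IL24, 0.46 for IL1A, 0.54 for TNC, 0.39 for NT5E, 0.54 for INHBA, 1.25 for DDIT3, 0.63 for ALDH1L2 and 0.28 for GADD45A on the log2 scale. It was higher under vehicle but lower with the control hairpin for the others, with R minus P of -0.28 for KRT18, -0.19 for INSIG1, -0.10 for CDC20, -0.47 for CCNB2, -0.23 for TK1, -0.34 for PCNA and -0.50 for ID3.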

How the results depend on the processing

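Of the 118 protein-coding genes given above with values of their own and called under vehicle, 113 kept their call and direction under all 14 alternatives. Most of the named genes were picked for large differences or small adjusted p in this same fit. Their count therefore does not measure how firm the calls over all genes were. MAP3K8, FGFR2 and IGFBP5 were not tested with the filter at 5 FPKM and kept their calls under the others. DUSP6 and MAP2K1 did not, as given above, and MAP2K1 also missed the threshold with equal sums (adjusted p = 0.0654), with the vehicle libraries alone (0.0989) and with array weights (0.0614). FOSL1, not called, stood at 0.47 without P_DMSO replicate 2 (adjusted p = 0.0372) and at -0.98 without P_DMSO replicate 1 (0.0031), against -0.26 with all libraries. Against 4872 genes called (2875 higher and 1997 lower), fitting the vehicle libraries alone called 2529 (1443 higher and 1086 lower) and array weights 2962 (1781 and 1181). Leaving out 1 vehicle library gave 2508 to 6120 genes called, 1416 to 4063 higher and 1042 to 2507 lower. For drugs, leaving out 1 drug-treated library gave 3277 to 3391 and 1 vehicle library 4971 to 7517, against 5675. For the difference between drugs and vehicle, leaving out any 1 of the 8 gave 667 to 4493, against 2169. Array weights kept all 8 libraries. In each contrast the number called rose without either P_DMSO library and fell without any other library. The standard deviation between replicates was 0.599 in P_DMSO and 0.283 to 0.308 in the other groups. The part of this spread in the counts was not tested. A pseudocount of 0.1 called 4603, no filter on low values 4398, a filter at 5 FPKM 3651, equal sums 4606 and no trend or robust fitting 4755. Quantile normalization called 2352 higher and 2432 lower with a median over all genes of -0.0023 where it had been 0.11. With the replicate block 4302 genes were called (2542 higher and 1760 lower), 5150 with drugs and 1511 for the difference, but the libraries share only a number. A crossed pairing, chosen after seeing the data, called 5039.

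With 2 libraries a group, P_DMSO being the most variable, 22% of simulated 2-fold differences were called. The simulation gave each gene the same spread in every group and changed few genes, where 31.8% were called in the data. It therefore cannot give the share of differences detectable here. The depth of each library is only estimated.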
